A study of Mus musculus with 12 samples.

Results

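Macrophages are the resident phagocytes of skeletal muscle, and 10 genes that mark them were followed here across 12 mouse arrays: Csf1r, Cd68, Cd163, Mrc1, Lyz2, C1qa, C1qb, C1qc, Cd14 and Itgam. They were chosen by symbol through the platform annotation, which gave them 14 probe sets (Affymetrix groups of short probes for 1 transcript), and a gene's brightest probe set, by its average on the 12 arrays, stands for it here. They are 10 of 18193 genes with a probe set. All 10 lay above the filter on low values, which left 12654 genes to test.

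The mice were wild type (WT) or lacked Stat5a and Stat5b (KO), and each genotype was measured without and with growth hormone (GH), as 3 arrays of 3 differently numbered animals per group. Muscle is named in the series title only, and the treatment text ties the deletion to blood cells. Whether the macrophages of the tissue carried the deletion was not tested, as the values are of bulk tissue. The 8 muscle fibre genes checked summed to signals of 316075 to 501785 on the 12 arrays, far above those of the macrophage genes. The labels name no Cre driver, GH dose, duration, age or sex, and no vehicle for the animals without GH. Stat5b signal was 2640 to 2955 in WT and 372 to 497 in KO, and with GH 1694 to 1896 and 333 to 378. Stat5a was 561 to 730 in WT and 170 to 361 in KO, and with GH 384 to 436 and 129 to 196.

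STAT5A and STAT5B carry the signal of the GH receptor and of several cytokine receptors into the nucleus. Tissue macrophages depend on the CSF1 receptor for survival, take up debris and pathogens through scavenger and lectin receptors, digest them in lysosomes, and are the main source of complement C1q. In muscle they clear damaged fibres and take part in repair. Some of the markers are shared: Lyz2, Cd14 and Itgam are also made by neutrophils and blood monocytes.

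The arrays with GH differed from the others in more than muscle and immune genes. Bacterial control RNAs that are added before labelling had a geometric mean signal of 487 to 533 with GH and 151 to 173 without. For beta actin, whose 3 prime over 5 prime ratio reflects how intact the RNA was, that ratio lay between 0.805 and 0.864 on arrays without GH and between 0.887 and 1.01 on those with it. The same ratio of Gapdh overlapped, at 0.834 to 0.877 without GH and 0.795 to 0.86 with it. The sample titles also number the animals with GH in another style than those without. No label names a batch, but GH cannot be told apart from whatever else differed between these sets of arrays, and this holds for every GH comparison below. Comparisons of KO with WT lie within 1 such set. As the tissue was measured in bulk, fewer macrophages and less RNA per macrophage cannot be told apart either.

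With GH, 4 of the 10 genes fell and 1 rose in WT muscle, and 6 fell and 1 rose in KO muscle. Csf1r, C1qa, C1qc and Lyz2 fell in both genotypes and Cd14 rose in both, while Cd163, C1qb and Itgam passed limma's threshold in neither. The members therefore did not share 1 direction. Among the 12654 genes tested, 19.1% changed with GH in WT (11.8% fell and 7.33% rose) and 24.3% in KO (15.4% fell and 8.93% rose). Both falls and rises were thus common on these arrays. Groups with and without GH did not overlap for 7 genes in each genotype, 6 lower and 1 higher with GH. For all genes those shares were 21% lower and 13.3% higher in WT, and 27.9% lower and 16.5% higher in KO. Lower in both genotypes were 4 of the 10 genes, or 40%, beside 7.4% of all genes tested. The sign of the GH change was the same in WT and KO for 10 of 10 genes, beside 74% of all genes. The median log2 fold change of the 10 genes was -0.42 in WT and -0.41 in KO, against -0.06 in both genotypes for all genes.

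**Figure D1:**
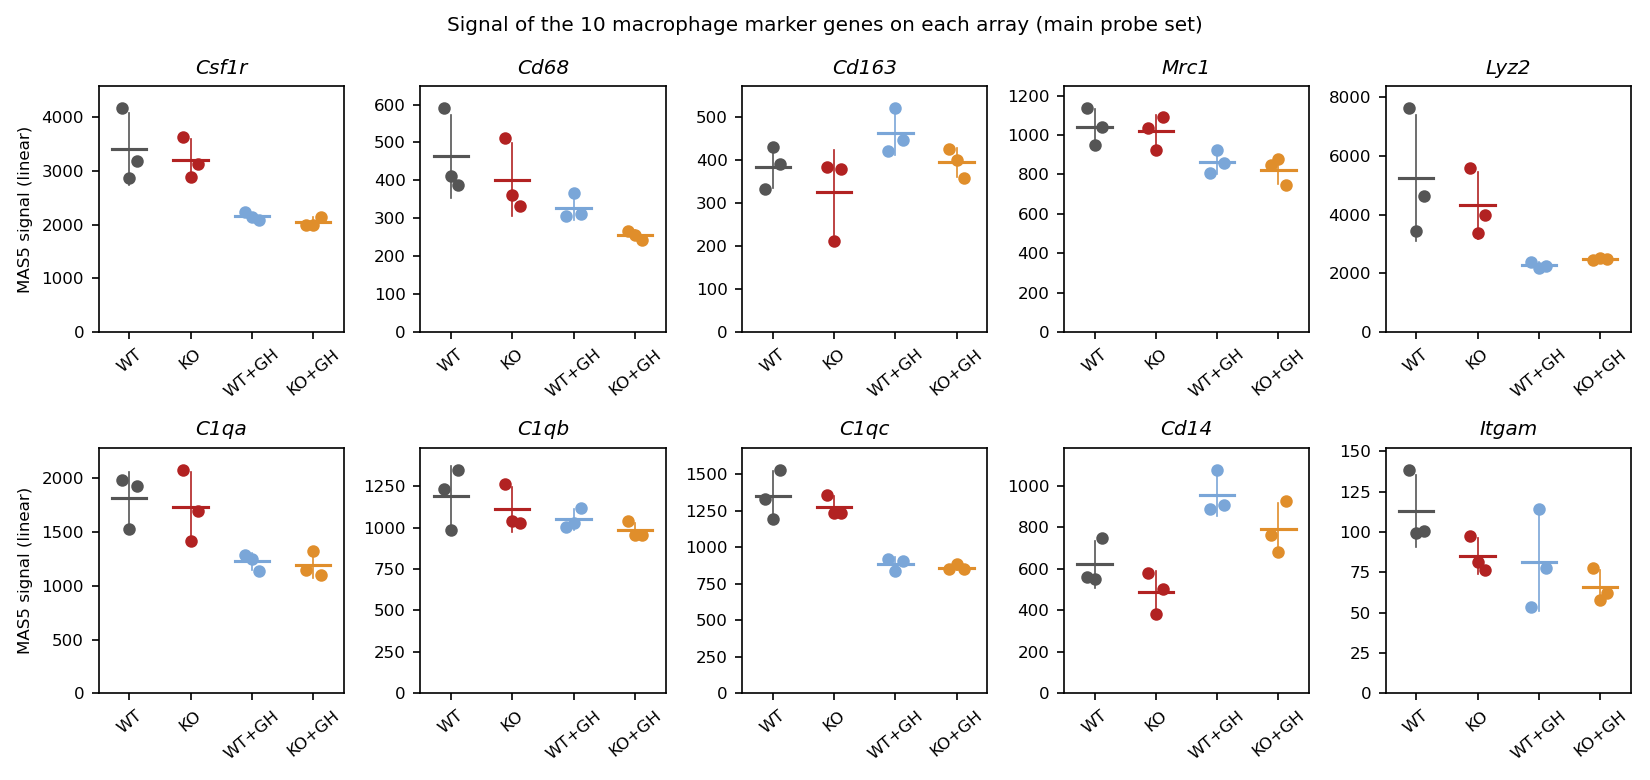
MAS5 signal (linear scale, starting at 0) of the main probe set of each of the 10 genes on the 12 arrays, by group. Points are arrays, horizontal bars the mean of 3 arrays and vertical bars 1 SD. Csf1r, Cd68, Mrc1, Lyz2, C1qa and C1qc are lower on all arrays with GH than on the arrays of the same genotype without it, and Cd14 is higher.

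Csf1r encodes the receptor for CSF1 and IL34 that keeps the lineage alive. Its signal was 4167, 2873 and 3180 in WT, and 2232, 2137 and 2087 with GH. In KO it was 3625, 2879 and 3121, and with GH 1998, 2000 and 2149. All 6 arrays with GH lay below all 6 without. The fall was 0.64 ± 0.118 (standard error) on the log2 scale in WT and 0.63 ± 0.118 in KO, to 64.2% and 64.4% of the level without GH (limma adjusted p = 0.00164 and 0.00135). The call held without any 1 array, with an adjusted p of at most 0.00968 in WT and 0.00805 in KO. Both other Csf1r probe sets were lower with GH too, by log2 changes of -1.07 and -0.92 in WT and -0.56 and -0.87 in KO. For the first of these the GH change differed between genotypes by 0.51 ± 0.175 at an unadjusted p of 0.0107, which did not pass after adjustment over all probe sets (limma adjusted p = 0.286).

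Of the phagocytic and lysosomal markers, Lyz2 fell with GH in both genotypes and Cd68 in KO. Lyz2, the lysozyme of myeloid cells that cuts bacterial walls, was 7618, 3449 and 4641 in WT and 2374, 2186 and 2248 with GH. In KO it was 5570, 3360 and 3998, and with GH 2445, 2518 and 2492. The arrays without GH spread widely, with WT 1 the highest of all, and those with GH lay close together below them. Lyz2 fell by 1.12 ± 0.235 in WT and 0.76 ± 0.235 in KO, to 46% and 59.2% (adjusted p = 0.00611 and 0.0347). In KO the call was lost without any 1 of 5 arrays, with an adjusted p of up to 0.114 without KO 1, with quantile normalization (0.0512) and with eBayes without trend and robust (0.0531).

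Lyz1, the neighbouring lysozyme gene in the RefSeq table, was looked at after its values were seen, since both of its bright probe sets end in _x_at, a suffix for probes shared with other transcripts. They had log2 changes of -0.93 and -1.05 with GH in WT (adjusted p = 0.0312 and 0.0231) and of -0.45 and -0.77 in KO (adjusted p = 0.249 and 0.0691). With such probes the Lyz1 signals cannot be told apart from those of Lyz2. The Lyz2 probe set does not end in that suffix, and whether it also reads Lyz1 was not tested.

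Cd68, a glycoprotein of phagocyte lysosomes, was 590, 410 and 389 in WT and 306, 366 and 312 with GH. In KO it was 511, 361 and 331, and with GH 267, 257 and 242. The groups did not overlap in either genotype. The log2 change was -0.45 ± 0.172 in WT (adjusted p = 0.0839) and the gene fell by 0.58 ± 0.172 in KO (adjusted p = 0.0231). The KO call was lost without KO 1 (0.109), KO+GH 2 (0.061) or KO+GH 3 (0.0738), and with each array centred on the median of all probe sets the WT change passed too (-0.63, adjusted p = 0.0136).

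C1q binds immune complexes and dying cells and starts the classical complement cascade, and of its 3 chains C1qa and C1qc fell with GH in both genotypes while C1qb passed the threshold in neither. C1qa was 1982, 1526 and 1925 in WT and 1286, 1250 and 1140 with GH, and in KO 2076, 1415 and 1690 without and 1141, 1323 and 1100 with GH. C1qc was 1335, 1193 and 1531 in WT and 922, 839 and 906 with GH, and in KO 1361, 1233 and 1237 without and 854, 884 and 849 with GH. For both chains no array with GH reached an array of its genotype without GH. C1qa fell by 0.55 ± 0.133 in WT and 0.52 ± 0.133 in KO (adjusted p = 0.01 and 0.0108, and 0.0515 in KO without KO 1). C1qc fell by 0.59 ± 0.0967 in WT and 0.55 ± 0.0967 in KO (adjusted p = 0.000726 and 0.00086), the smallest p among the 10 genes in both genotypes.

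C1qb was 1232, 988 and 1348 in WT and 1002, 1028 and 1119 with GH, and in KO 1266, 1038 and 1028 without and 1037, 958 and 956 with GH. These groups overlapped in both genotypes. Its log2 change was -0.17 ± 0.116 in WT and -0.17 ± 0.116 in KO (adjusted p = 0.348 and 0.326). The other C1qb probe sets, both of the _x_at kind, had log2 changes of 0.20 and -0.02 in WT and of 0.51 and 0.35 in KO, the 0.51 with an adjusted p of 0.0436 when all probe sets were tested. The gene's direction with GH therefore differed between its probe sets, and the mean of the 3 gave 0.00 in WT and 0.23 in KO (adjusted p = 0.987 and 0.345). Measured against C1qb on the same array, C1qc was lower by a log2 difference of -0.42 ± 0.161 in WT and -0.39 ± 0.161 in KO, which did not pass the threshold (adjusted p = 0.0912 and 0.113). The same held for C1qa against C1qb (-0.38 and -0.35, adjusted p = 0.133 and 0.156). Before adjustment over all genes, the limma p for C1qc against C1qb was 0.0116 in WT and 0.0195 in KO. For C1qa against C1qb it was 0.0212 in WT and 0.0322 in KO. Unequal change of the chains was thus seen before adjustment only, and was not shown at the threshold used here.

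C1qb, C1qc and C1qa follow one another on chromosome 4 in the RefSeq gene table. The 250 bases before the start of 2 of these genes are given with those of Lyz2, to show the DNA next to a chain that passed the threshold with GH, a chain that did not, and the member furthest from 0. They come from RefSeq, build GRCm38.p6, all on the minus strand and printed 5′ to 3′ in the direction of the gene, at chr4:136892915-136893164 for C1qc, chr4:136886201-136886450 for C1qb and chr10:117282273-117282522 for Lyz2. Capitals mark matches on either strand to GAGGAA, the PU box bound by the myeloid factor PU.1.
C1qc: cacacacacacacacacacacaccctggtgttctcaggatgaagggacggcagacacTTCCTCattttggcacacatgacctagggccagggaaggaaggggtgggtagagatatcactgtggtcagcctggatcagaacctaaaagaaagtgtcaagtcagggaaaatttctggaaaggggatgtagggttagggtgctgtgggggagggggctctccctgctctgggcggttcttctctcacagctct
C1qb: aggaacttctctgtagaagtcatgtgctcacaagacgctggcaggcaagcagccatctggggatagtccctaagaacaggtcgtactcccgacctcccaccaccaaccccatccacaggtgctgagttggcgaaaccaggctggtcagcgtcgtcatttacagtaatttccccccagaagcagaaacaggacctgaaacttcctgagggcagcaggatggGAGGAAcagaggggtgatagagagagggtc
Lyz2: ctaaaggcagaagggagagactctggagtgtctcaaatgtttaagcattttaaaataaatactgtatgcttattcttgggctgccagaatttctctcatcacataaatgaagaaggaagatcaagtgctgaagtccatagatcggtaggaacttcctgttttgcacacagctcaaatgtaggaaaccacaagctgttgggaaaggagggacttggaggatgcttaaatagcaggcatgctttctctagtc

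C1qc and C1qb each held 1 PU box, on opposite strands, and Lyz2 held 0. Promoter windows were searched for 7 of the 10 genes, and the counts do not cover Csf1r, C1qa and Cd14. Windows on 1 chromosome were left out for the members but kept among all windows. A gene without a window here may therefore still have one. Of the 7, 5 held the motif (Cd68, Mrc1, C1qb, C1qc and Itgam), beside 23.3% of 32851 windows of the same length. The STAT motif TTCNNNGAA was in 0 of the 7 windows and in 7.02% of all windows. The glucocorticoid response element was in 0 of the 7 and in 0.00913% of all. All motifs were searched on both strands. A match is only a run of letters, and the windows leave out every distant element.

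Of the scavenger receptors, Mrc1 fell with GH in KO and Cd163 passed in neither genotype. Mrc1, the mannose receptor of resident macrophages, was 1136, 950 and 1039 in WT and 806, 924 and 859 with GH, and in KO 1037, 927 and 1091 without and 846, 879 and 744 with GH. The groups did not overlap, though they came close. The log2 change was -0.26 ± 0.103 in WT (adjusted p = 0.0902) and the gene fell by 0.30 ± 0.103 in KO (adjusted p = 0.0466). That KO call was lost without any 1 of 8 arrays and under 6 of the 13 other settings, with adjusted p of up to 0.191. Under centring on the median of all probe sets the WT change passed (-0.45, adjusted p = 0.004).

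Cd163, which takes up haemoglobin bound to haptoglobin, was 332, 430 and 390 in WT and 419, 519 and 447 with GH. In KO it was 382, 210 and 379, and with GH 424, 400 and 357. The groups overlapped in both genotypes, and KO 2 was the lowest array. Its log2 change was 0.25 ± 0.185 in WT and 0.30 ± 0.185 in KO (adjusted p = 0.375 and 0.251). The KO value was 0.04 without KO 2 (adjusted p = 0.869) and 0.47 with array weights (adjusted p = 0.0365). The 95% intervals reached from -0.14 to 0.65 in WT and from -0.09 to 0.70 in KO.

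Cd14, the co-receptor that hands bacterial lipopolysaccharide to TLR4, went the other way. It was 562, 551 and 749 in WT and 885, 1076 and 908 with GH. In KO it was 579, 383 and 504, and with GH 760, 682 and 926. All 6 arrays with GH lay above the arrays of their own genotype without GH. Cd14 rose by 0.61 ± 0.16 in WT and 0.67 ± 0.16 in KO, to 153% and 159% (adjusted p = 0.0149 and 0.00692). The WT call was lost without WT 2 (0.0539), without WT+GH 2 (0.0687) and with each array centred on the median of all probe sets (0.062).

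Itgam, which encodes CD11b, the alpha chain of a complement receptor integrin, was dim. It was 139, 99.2 and 101 in WT and 53.3, 114 and 77.5 with GH, and in KO 97.8, 81.7 and 76.3 without and 77.7, 58 and 61.9 with GH. The median signal of all probe sets on these arrays was 79.3 to 102, so Itgam lay near the middle of the array and the groups overlapped. Its log2 change was -0.40 ± 0.245 in WT and -0.28 ± 0.245 in KO (adjusted p = 0.285 and 0.44).

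**Figure D2:**
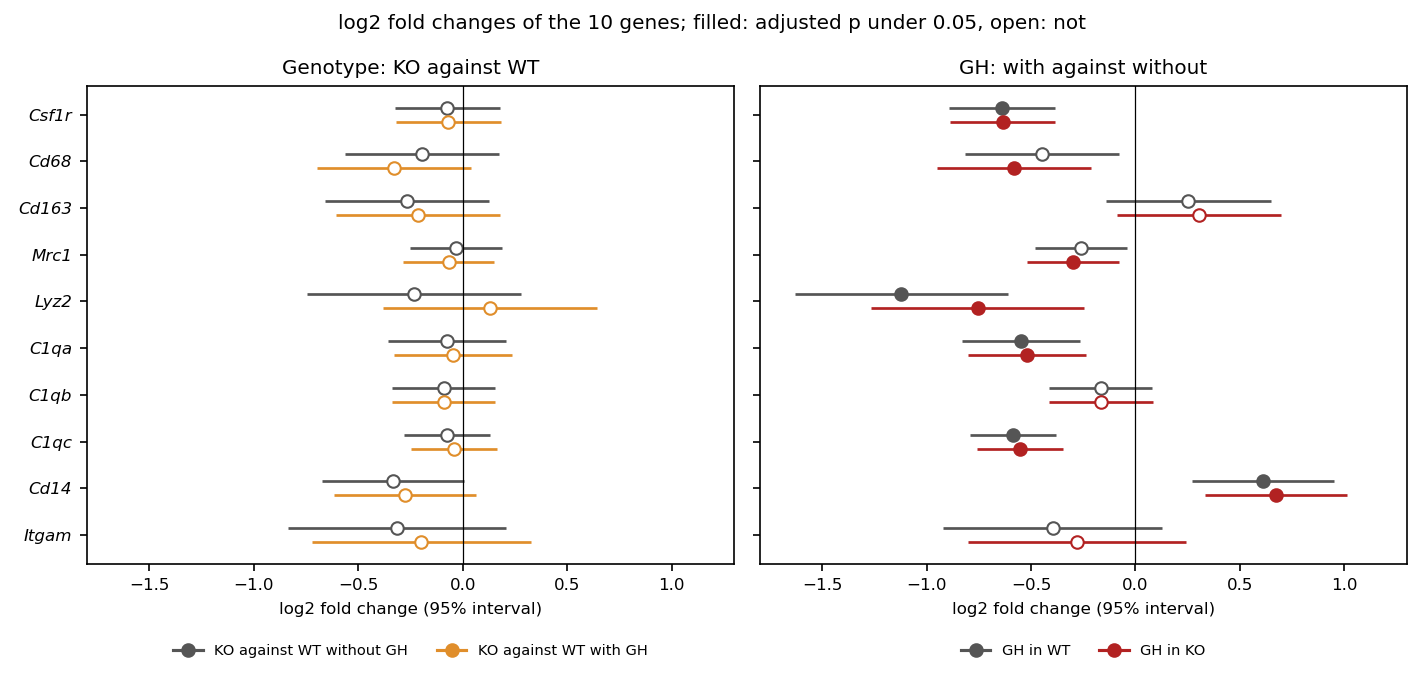
Log2 fold changes of the 10 genes with 95% intervals from limma (n = 3 arrays per group), KO against WT on the left and with against without GH on the right. Filled points passed an adjusted p of 0.05 and open points did not. No gene passed on the left, while on the right Cd14 lies above 0 and Csf1r, Lyz2, C1qa and C1qc below 0 in both genotypes.

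Whether the members changed by like amounts was asked by subtracting the log2 value of Csf1r on each array from every gene and fitting again. With GH in WT, Cd14 was higher relative to Csf1r by 1.25 ± 0.184, Cd163 by 0.89 ± 0.215, C1qb by 0.47 ± 0.157 and Mrc1 by 0.38 ± 0.158 (adjusted p = 1.45e-05, 0.00161, 0.0128 and 0.0399). Lyz2 was lower relative to Csf1r by a log2 difference of -0.48 ± 0.16 (adjusted p = 0.0129). Of all genes, 65.5% stood higher than this reference and 0.506% lower, so a higher value was the common case and that of Lyz2 was not. In KO, Cd14, Cd163 and C1qb were higher by 1.31 ± 0.184, 0.94 ± 0.215 and 0.47 ± 0.157 (adjusted p = 6.45e-06, 0.00102 and 0.0142), beside 60.8% of all genes, and 0 of the 9 genes were lower, beside 0.601%.

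C1qa and C1qc kept close to Csf1r. Their log2 differences from it with GH were 0.09 and 0.05 in WT and 0.12 and 0.08 in KO, with all 4 95% intervals between -0.27 and 0.43. Cd68 and Itgam did not pass in either genotype. With C1qb as the reference, Cd14 was higher by 0.78 ± 0.177 and Lyz2 and Csf1r were lower by log2 differences of -0.95 ± 0.172 and -0.47 ± 0.157 in WT (adjusted p = 0.00135, 6.18e-05 and 0.0416), beside shares of 7.45% higher and 2.35% lower among all genes. In KO the same 3 genes passed, by 0.84, -0.59 and -0.47, beside 9.4% and 2.99% of all genes. A difference from a reference gene shows unequal change and does not say which of the pair moved.

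**Figure D3:**
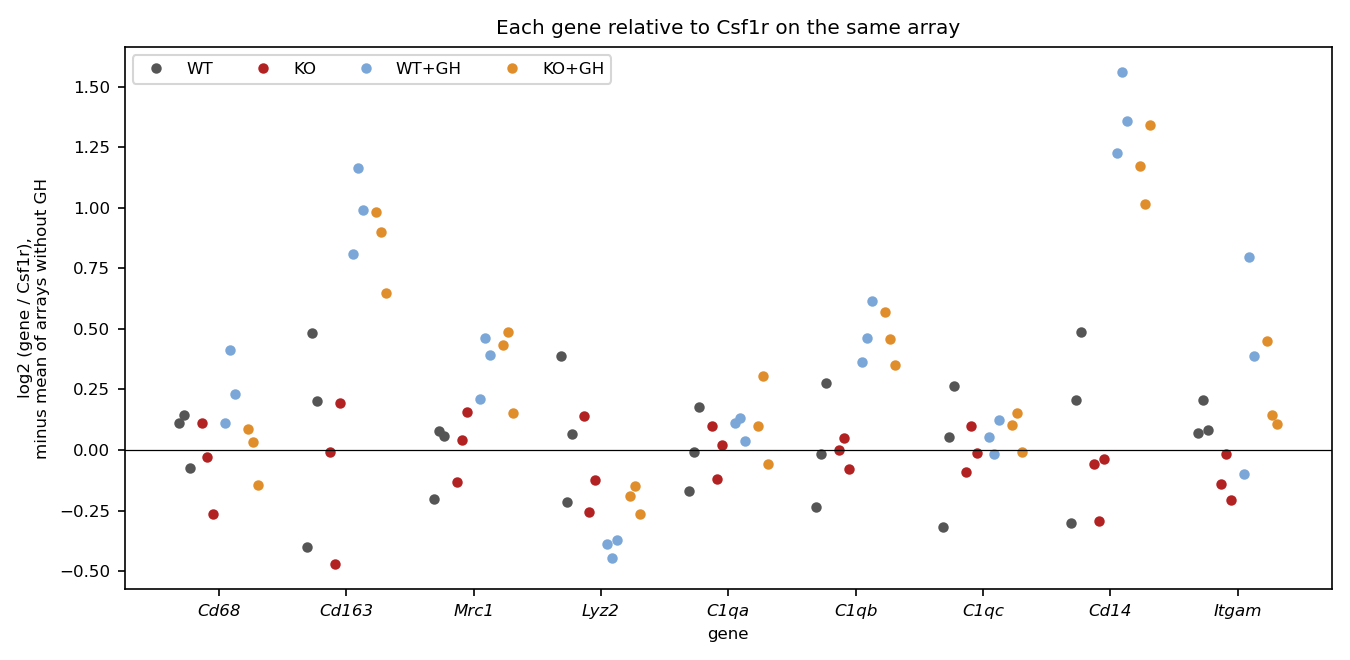
Log2 ratio of each gene to Csf1r on the same array, less the mean of the 6 arrays without GH, for 9 genes. Points are arrays, coloured by group. Cd14, Cd163 and C1qb are higher on all 6 arrays with GH than on any array without, C1qa and C1qc stay around 0, and Lyz2 is lowest in WT with GH.

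Loss of STAT5 was not accompanied by a called change of any member. Without GH 0 of the 10 genes passed (0 at an unadjusted p under 0.05), against 1.45% of all genes, and with GH 0 of 10 passed (again 0 unadjusted), against 4.53%. The log2 fold changes of KO against WT ran from -0.33 to -0.03 without GH and from -0.33 to 0.13 with GH. All 10 were below 0 without GH and 9 with GH, with medians of -0.14 and -0.08 beside 0.00 and -0.02 for all genes. Without GH the number below 0 was 7 without WT 1, 8 without WT 3 or KO 2, and 6 without WT 1 and KO 3 together.

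Cd14 had the lowest value without GH, -0.33 ± 0.16, with a 95% interval from -0.67 to 0.01 (adjusted p = 0.441). Cd68 had the lowest with GH, -0.33 ± 0.172, with an interval from -0.70 to 0.04 (adjusted p = 0.364). For Csf1r the intervals ran from -0.33 to 0.18 without GH and from -0.32 to 0.18 with GH. Groups that did not overlap were Itgam, lower in KO without GH, beside 7.03% of all genes, and with GH Cd68, lower, beside 16.3%, and Lyz2, higher, beside 13.8%. Each of these is 1 gene of 10, close to those shares.

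The GH changes were not shown to differ between genotypes. In the interaction, the GH change in KO less that in WT, 0 of 10 genes passed (0 at an unadjusted p under 0.05), against 0.933% of all genes. Estimates ran from -0.13 for Cd68 to 0.36 for Lyz2, and the interval for Lyz2 from -0.36 to 1.09. For Csf1r the difference was 0.00 with an interval from -0.35 to 0.36, so differences of up to about 0.36 on the log2 scale in either direction lie within the error.

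Within groups many of the markers deviated in the same direction on single arrays without GH. KO 1 was the highest of the 3 KO arrays for 9 of the 10 genes and KO 2 the lowest for 7. WT 1 was the highest WT array for 6 genes and WT 2 the lowest for 8. How often these arrays were highest or lowest over all genes was not counted. Whether these were shifts of the markers alone or of whole arrays was therefore not tested. The mean without the lowest and highest 2% of probe sets was 500 on every array. The median signal of all probe sets was 79.3 on KO 1, 81.6 on KO 2, 87.3 on WT 1 and 85.6 on WT 2. The median deviation of the 10 genes from their group mean was 0.22 for KO 1, 0.13 for WT 1, -0.14 for KO 2 and -0.16 for WT 2 on the log2 scale. Arrays with GH had medians between -0.08 and 0.06. On WT 1, Cd163 (-0.19), Cd14 (-0.12) and C1qc (-0.01) were below their group means and the other 7 genes above.

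**Figure D4:**
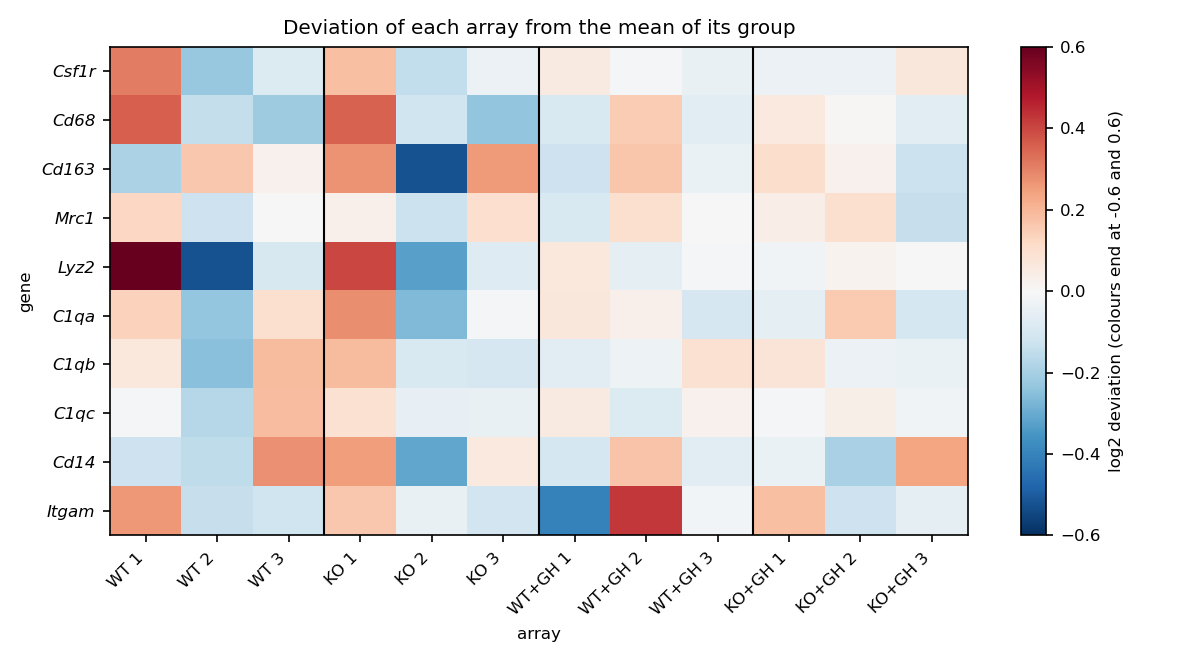
Log2 deviation of each array from the mean of its group of 3, for the 10 genes (rows) and 12 arrays (columns). Red is above and blue below the group mean. KO 1 is above its group mean for all 10 genes and WT 2 is below for all but Cd163. The arrays with GH are paler for most genes but not for Itgam, at -0.41 on WT+GH 1 and 0.43 on WT+GH 2.

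Other genes of the macrophage, from a list of 23 of which 19 were bright enough to test, showed the same mixture. With GH in WT 8 fell and 1 rose, and in KO 7 fell and 2 rose, with medians of -0.60 and -0.40. Of all genes 11.8% fell and 7.33% rose in WT, and 15.4% fell and 8.93% rose in KO. Cd74, the invariant chain of antigen presentation, fell by 1.16 ± 0.115 in WT and 1.59 ± 0.115 in KO (adjusted p = 8.89e-06 and 1.84e-07). Folr2, a folate receptor of resident macrophages, fell by 1.05 and 1.29, the chemokine Pf4 by 0.60 and 0.49, and the lysosomal Laptm5 by 0.76 and 1.01. The protease Lgmn fell by 0.68 in WT and had a log2 change of -0.17 in KO (adjusted p = 0.221). Lyve1, a hyaluronan receptor of a resident subset and of lymphatic vessels, rose by 0.52 ± 0.105 and 0.82 ± 0.105 (adjusted p = 0.00319 and 6.45e-05). In KO against WT 0 of 19 passed without GH, and with GH only Lgmn did, up by 0.87 ± 0.0978 (adjusted p = 5.31e-05).

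Genes related to single markers were counted in lists. The counts are to be read beside the 7.33% of all genes that rose and the 11.8% that fell with GH in WT. In KO those shares were 8.93% and 15.4%. Of 9 partners of CD14 and TLR4, 4 rose and 0 fell with GH in WT and 3 rose and 0 fell in KO, among them the NF-kappaB inhibitor Nfkbia (1.09 and 0.80) and Irak3, a brake on TLR signalling (0.85 and 1.04). Of 8 complement partners, 2 fell in WT and 3 in KO, among them C1ra, the protease that C1q activates (-0.60 and -0.58), and C1s1 (-0.48 and -0.29). Of 7 partners of Cd163 in haem and iron handling, 1 fell in WT and 2 fell and 1 rose in KO. The iron exporter Slc40a1 fell, with log2 changes of -0.998 and -1.20, and the haem oxygenase Hmox1 rose by 1.40 in KO and was lower in KO than in WT without GH (-1.15 ± 0.259, adjusted p = 0.0446). Of 7 genes grouped with the CSF1 receptor, 1 rose and 1 fell in WT and 2 rose and 1 fell in KO. The shared cytokine receptor chain Csf2rb rose by 1.58 and 1.78, and Irf8 rose by 1.06 in KO. The macrophage factor Maf fell by 0.34 and 0.32. The ligands Csf1 and Il34 passed in neither genotype. Of 4 genes for integrin chains and an integrin ligand, 1 rose and 0 fell in WT, and 1 rose and 1 fell in KO. The chain Itgb2 passed in neither, with log2 changes of -0.54 in WT and -0.43 in KO (adjusted p = 0.0514 and 0.0967). The ligand Icam1 rose by 1.64 and 0.81 and was lower in KO than in WT with GH (-0.80 ± 0.178, adjusted p = 0.0155), and Itga4 fell by 0.55 in KO (adjusted p = 0.0177). Of 7 lysosomal partners of Cd68 1 fell in each genotype, Ctsl by 0.25 in WT and Lamp1 by 0.23 in KO.

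Markers of other cells that hold some of the same genes moved with GH as well. Their counts are to be read beside the same shares of all genes. Of 15 neutrophil markers 8 were tested, and 3 rose and 0 fell in WT while 3 rose and 1 fell in KO. S100a9 and S100a8 rose by 3.83 and 3.69 in WT and by 3.02 and 2.93 in KO. Ngp rose by 1.62 in WT, Csf3r rose by 1.40 in KO and Mmp9 fell by 0.95 in KO. Mpo, Ltf and Il1r2 passed in neither. S100a9 and Ngp were lower in KO than in WT with GH (-0.84 and -0.85, adjusted p = 0.0126 and 0.0174). The summed signal of the 12 with a probe set was 908 to 1385 in WT and 906 to 1088 in KO. With GH it was 3563 to 3746 in WT and 2120 to 2312 in KO. S100a9 and S100a8 weigh heavily in this sum, with means of 59.6 and 59.4 in WT and 1164 and 987 in WT with GH. Of 5 monocyte markers tested 2 fell in WT and 3 in KO. Fn1 fell by 0.62 and 0.66, Ace by 0.44 and 0.55, and F13a1 by 0.43 in KO. Plac8 and Ccr2 passed in neither, with log2 changes of 0.79 and 0.11 in WT and 0.31 and -0.54 in KO. The sum of the 7 with a probe set was 7386 to 10507 in WT and 8266 to 10277 in KO. With GH this sum was 5759 to 6697 in WT and 5900 to 6209 in KO. Fn1 weighs heavily in it, with a mean of 5669 in WT and 3649 in WT with GH. Of 8 muscle fibre genes 0 passed in WT, and 6 fell in KO, such as Mb by 0.56 and Ckm by 0.63. The part of neutrophils, monocytes and fibres in the values of Lyz2, Cd14 and Itgam was not tested.

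**Figure D5:**
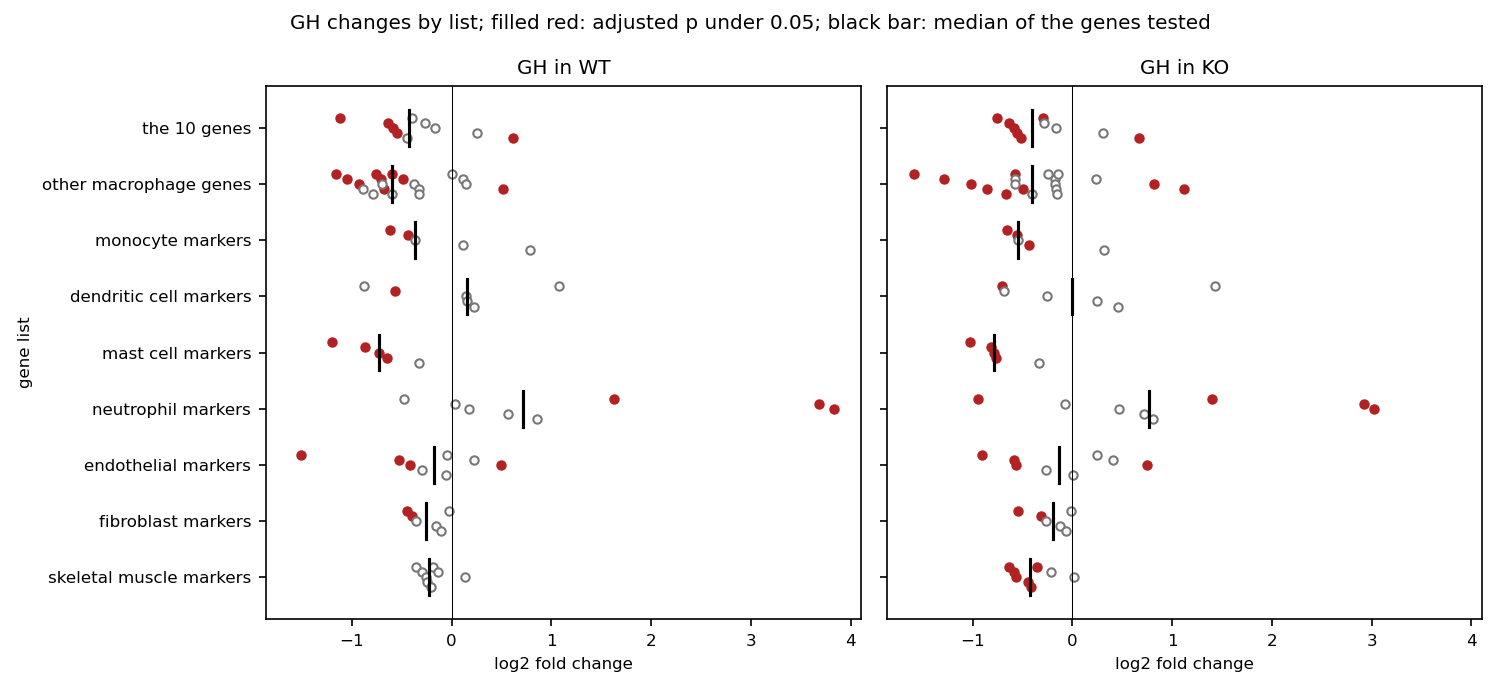
Log2 fold changes with GH in WT (left) and KO (right) for the 10 genes and 8 other lists. Each point is 1 gene that passed the filter, filled red where the adjusted p was under 0.05, and black bars are medians of the genes tested. Macrophage, monocyte and mast cell lists lie mostly below 0, and the neutrophil list mostly above.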

How the data were processed

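RNA of 12 samples was hybridized to 12 1-colour Affymetrix arrays. The authors deposited MAS5 signals (intensity, not on a log scale), per the submitters' processing notes; version and settings are not given in the sources used here. The mean without the lowest and highest 2% of probe sets was 500 on every array. No detection calls were used, and the number of arrays limits the precision.

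Values were taken as log2(signal + 25). Control probe sets (64) and those with several symbols (932) or none (9160) were left out. A gene was tested where its average exceeded the 40th percentile of all non-control probe sets, with limma 3.58.1 (R 4.3.3, statmod 1.5.0): 1 mean per group over all 12 arrays, eBayes with trend and robust, 2-sided p adjusted by Benjamini-Hochberg over the 12654 genes, threshold 0.05. "Rose" and "fell" refer to that threshold, and values after ± are standard errors of log2 changes. The method was tested on simulated data. Replicates are numbered in the order of the samples. Nothing pairs them, and p-values measure the spread between these samples.

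The 10 genes and all lists were chosen with earlier results of these data known. By rule, all members and the 8 genes most like Csf1r and the C1q mean are named. The rule for lists was up to 4 called genes, or 2 where none passed. More are named for other macrophage genes and neutrophil markers. Called genes of several lists, other macrophage genes among them, are left unnamed, and summaries may leave some out. Lyz1 lies outside the rule. Alternatives covered the pseudocount, filter, scaling, probe sets, moderation, weights, samples in the fit and each array left out.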

Additional observations from a re-analysis of the deposited data

How the results depend on the processing

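Of 1235 member values recomputed, 28 lost their call, 3 gained one, and no called value changed sign; 57 changed sign with neither value past the threshold. Without any 1 array the number of members called with GH in KO was 3 to 7 (7 with all arrays; 3 without KO 1, 4 without KO+GH 2 or KO+GH 3) and with GH in WT 4 to 5. It was 0 to 0 in both comparisons of KO with WT and in the interaction. With C1qb in place of Csf1r as the reference, 3 members passed with GH in WT, against 5. Centring each array on the median of all probe sets, chosen after seeing the data as was leaving out WT 1 and KO 3 together, moved the median GH change of all genes to -0.24 in both genotypes, with 490 genes higher and 3939 lower in WT and 643 and 4173 in KO. Centring on the genes tested gave 1113 and 1097 in WT and 1359 and 1362 in KO, against 927 and 1489 and 1130 and 1948 in the values reported. Itgam was not tested with a filter at the 60th percentile. No paired analysis was possible because the labels give no replicate numbers that groups share.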

Other observations

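The counts of the lists below are to be read beside the shares of all genes tested. With GH 11.8% fell and 7.33% rose in WT, and 15.4% fell and 8.93% rose in KO. Mast cells store proteases in granules. Of 7 of their markers 5 were tested, and 4 fell with GH in each genotype: Mcpt4 with log2 changes of -1.20 ± 0.14 in WT and -1.03 ± 0.14 in KO, Cpa3 by 0.73 and 0.76, Cma1 by 0.87 and 0.82, and Tpsb2 by 0.64 and 0.78. Their list had 0 genes called in KO against WT. Of 8 endothelial genes 3 fell and 1 rose in each genotype, with log2 changes of the VEGF receptor Kdr of -1.51 ± 0.127 in WT and -0.91 ± 0.127 in KO, and the clotting factor carrier Vwf up by 0.49 and 0.75. Kdr was also higher in KO than in WT with GH (0.70 ± 0.127, adjusted p = 0.00325). Of 6 fibroblast genes tested 2 fell in each genotype, with the matrix protein Lum down by 0.44 and 0.55. Of 6 dendritic cell genes tested 1 fell in each, Cd209a, by 0.57 and 0.71. Of 9 lymphocyte markers with a probe set only Cd8a was bright enough to test and did not pass, and of 5 red cell genes 2 were tested and did not pass.

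Outside the 10 genes, those whose log2 values over the 12 arrays were most like Csf1r were Ccdc50, Lap3, Clec10a (a lectin of macrophages), Cd48 (a leukocyte surface protein), Pkdcc, Scara3, Dap and Plpp1, with Pearson r from 0.964 to 0.978. Those most like the mean of the C1q chains were Pfkfb3, Acly, Ccl8 (a chemokine), Gm2a, Col6a3, Slc25a1, Rab5b and Arpc4, with r from 0.949 to 0.967. The 12 arrays share group means and the difference between the sets with and without GH, so these values describe likeness only.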
